A study of Mus musculus with 16 samples.

Results

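The genes described here are 10 corepressor and heterochromatin genes through which KRAB zinc finger proteins silence DNA: Trim28, Setdb1, Cbx1, Cbx3, Cbx5, Atrx, Daxx, Suv39h1, Ehmt1 and Ehmt2. They were chosen by gene symbol, and all 10 were listed in every library, among 16228 symbols listed in any. RNA was sequenced from brains of wild-type (WT) mouse fetuses at embryonic day 18.5. Fetuses had prenatal exposure either to an enriched environment (EE) or to standard habitation (SH), and the series title ties this exposure to neuronal development and the AHR-Src pathway. Each housing was represented by 5 cortex and 3 hippocampus libraries, 16 in all. The labels name neither fetuses, litters, sex nor pooling, so the p-values rest on how far libraries spread, and these may share an animal or a litter.

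KRAB zinc finger proteins bind DNA, often in transposable elements and imprinted regions, and recruit the scaffold protein TRIM28 (KAP1). TRIM28 in turn brings in SETDB1, which trimethylates histone H3 at lysine K9, and the HP1 proteins CBX5, CBX1 and CBX3 (HP1 alpha, beta and gamma), which bind that mark. SUV39H1 places the same mark at pericentromeric heterochromatin, EHMT1 (GLP) and EHMT2 (G9a) form a dimer that dimethylates the residue in gene-rich chromatin, and ATRX with its partner DAXX deposits the histone variant H3.3 in heterochromatin. In developing neurons EHMT1 and EHMT2 silence genes of other stages, and loss of human ATRX or EHMT1 function causes intellectual disability.

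The 10 genes are protein-coding genes on 8 chromosomes of mm10, with Daxx and Ehmt2 both on chromosome 17 and Atrx and Suv39h1 both on the X chromosome. GENCODE M21 places Trim28 on chromosome 7 from 12999114 to 13031035, Setdb1 on chromosome 3 from 95323525 to 95357202, and Ehmt1 on chromosome 2 from 24789928 to 24919614. Atrx lies on the X chromosome from 105797615 to 105929403, Ehmt2 on chromosome 17 from 34898469 to 34914052, Cbx3 on chromosome 6 from 51470360 to 51483704, and Cbx5 on chromosome 15 from 103191544 to 103239816. Their longest transcripts run from 2377 nt in Cbx1 to 10275 nt in Atrx. Setdb1 overlaps Cers2, Trim28 overlaps Zbtb45, and Cbx1 overlaps the pseudogene Gm11517, each on the opposite strand and each listed in the tables. Whether strand was used in counting is not given in the sources used here, so reads of such partners cannot be told apart.

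The 250 bases upstream of the annotated start are shown for 4 genes with 1 start each: Trim28, the most abundant, Setdb1 and Ehmt1, the pair whose levels moved together most closely, and Atrx, whose level varied most between libraries. The sequences are from RefSeq (GRCm38.p6, the mm10 build), 5′ to 3′ on the strand of the gene. Capitals mark GCGTG, the core sequence bound by AHR with ARNT, on either strand.
Trim28, chr7:13023902-13024151, plus strand: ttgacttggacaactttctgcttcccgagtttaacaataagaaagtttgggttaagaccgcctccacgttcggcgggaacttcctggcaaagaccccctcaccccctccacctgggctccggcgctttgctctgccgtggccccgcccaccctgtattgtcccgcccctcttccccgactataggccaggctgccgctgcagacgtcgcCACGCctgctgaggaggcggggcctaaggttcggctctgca
Setdb1, chr3:95357203-95357452, minus strand: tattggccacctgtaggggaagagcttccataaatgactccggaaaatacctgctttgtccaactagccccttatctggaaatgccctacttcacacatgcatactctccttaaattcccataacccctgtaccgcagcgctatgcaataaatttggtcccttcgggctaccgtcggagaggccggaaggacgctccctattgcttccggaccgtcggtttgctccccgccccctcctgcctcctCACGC
Ehmt1, chr2:24919610-24919859, minus strand: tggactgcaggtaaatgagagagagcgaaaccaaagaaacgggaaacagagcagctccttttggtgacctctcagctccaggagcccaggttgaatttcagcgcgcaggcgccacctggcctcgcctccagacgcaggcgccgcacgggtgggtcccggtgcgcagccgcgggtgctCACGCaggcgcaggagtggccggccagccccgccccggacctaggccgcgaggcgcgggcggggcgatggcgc
Atrx, chrX:105929373-105929622, minus strand: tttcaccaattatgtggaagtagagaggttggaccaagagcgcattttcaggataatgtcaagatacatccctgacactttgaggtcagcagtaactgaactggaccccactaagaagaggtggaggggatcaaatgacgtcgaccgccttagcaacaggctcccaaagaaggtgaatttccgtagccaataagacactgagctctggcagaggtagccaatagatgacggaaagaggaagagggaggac
The Trim28 window lies inside the GENCODE span of the gene, because the RefSeq start is downstream of the GENCODE one. The core was matched once upstream of Trim28, Setdb1 and Ehmt1 and not in the Atrx window. RefSeq lists 16 starts for the 10 genes, of which 9 (56.2%) hold GCGTG or its reverse complement, beside 28.2% of 32851 mouse promoters of the same length. GGGCGG, the GC box, was in 14 of the 16 windows (87.5%) beside 32.7% of all promoters, with the Atrx window among those without it. ATGGCG, the YY1 core, was in 37.5% of the windows beside 5.73% of all promoters, and the E2F motif TTGGCGC in 6.25% beside 1.97%. The 16 windows held a median of 23.5 CG pairs, from 6 in Atrx to 36 in Ehmt2, beside 6 over all promoters. Each of these motifs holds a CG pair, and the part of CG content in their shares was not tested. Starts of 1 gene can overlap, as those of Daxx do, the motifs were chosen after the files were seen, and a match is a description of letters, not of binding.

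All values are FPKM, fragment counts scaled by transcript length and library size, so levels of different genes can be set side by side. Such comparisons are approximate, since the annotation is not given and libraries differed in their trend on transcript length. Whole reads recovered from the steps of the FPKM values numbered 11141151 to 20197534 per library, and the 10 genes had 588 to 11522 reads each. At the lowest of these counts, 588 reads for Daxx, counting error is 4.12% of the value. Libraries of 1 group differed by more than counting noise in every pair. Cortex replicates 4 and 5 list fewer genes than cortex replicates 1 to 3 (13428 against 15975), and with hippocampus they form 3 blocks of libraries that are kept apart below. Cortex SH replicate 3 stood apart from the others: FPKM summed to 510540 there and to between 338885 and 395736 in each other library. Its deviations from the mean of its block ran against transcript length across genes, with a Spearman rho of -0.76 over 12384 genes. The Y-linked level was 0 to 0.02 on the log2(FPKM + 1) scale in cortex EE replicate 4, hippocampus EE replicate 3 and hippocampus SH replicate 2, and 2.12 to 3.24 in the other 13. In those 3 libraries the X-linked Atrx measured 24.1, 21.3 and 24.5 FPKM, inside the range of the other libraries. The tissue labels were checked with Prox1 and Zbtb20, transcription factors of the hippocampal formation chosen after the values were seen. Prox1 was 5.67 to 21.5 FPKM in hippocampus and 1.57 to 3.16 FPKM in cortex, and Zbtb20 5.59 to 14.4 and 0.632 to 3.44 FPKM, without overlap.

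Trim28, the scaffold, was the most abundant of the 10 genes. It ranged from 108 to 159 FPKM over the 16 libraries (median 129), above 97.1% of the genes listed in every library. Ehmt2 came next with a median of 80.2 FPKM followed by Cbx5 with 41.3 FPKM. Trim28 was above Ehmt2, Ehmt2 above Cbx5 and Cbx5 above Atrx in 16 of 16 libraries each. The remaining genes lay closer together: Atrx (median 21.8 FPKM), Ehmt1 (21.7), Cbx1 (20.8), Setdb1 (20.6), Daxx (17.0), Cbx3 (13.9) and Suv39h1 (13.1). Among these, Atrx was above Ehmt1 in 6 of 16 libraries, Ehmt1 above Cbx1 in 10, Cbx1 above Setdb1 in 5, Daxx above Cbx3 in 11 and Cbx3 above Suv39h1 in 9, so those neighbours changed places. Setdb1 was above Daxx in 15 of 16. The steadiest gene was Suv39h1, with a coefficient of variation of 7.95% over all libraries, and the most variable were Cbx3 at 23.9% and Atrx at 26.7%.

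**Figure D1:**
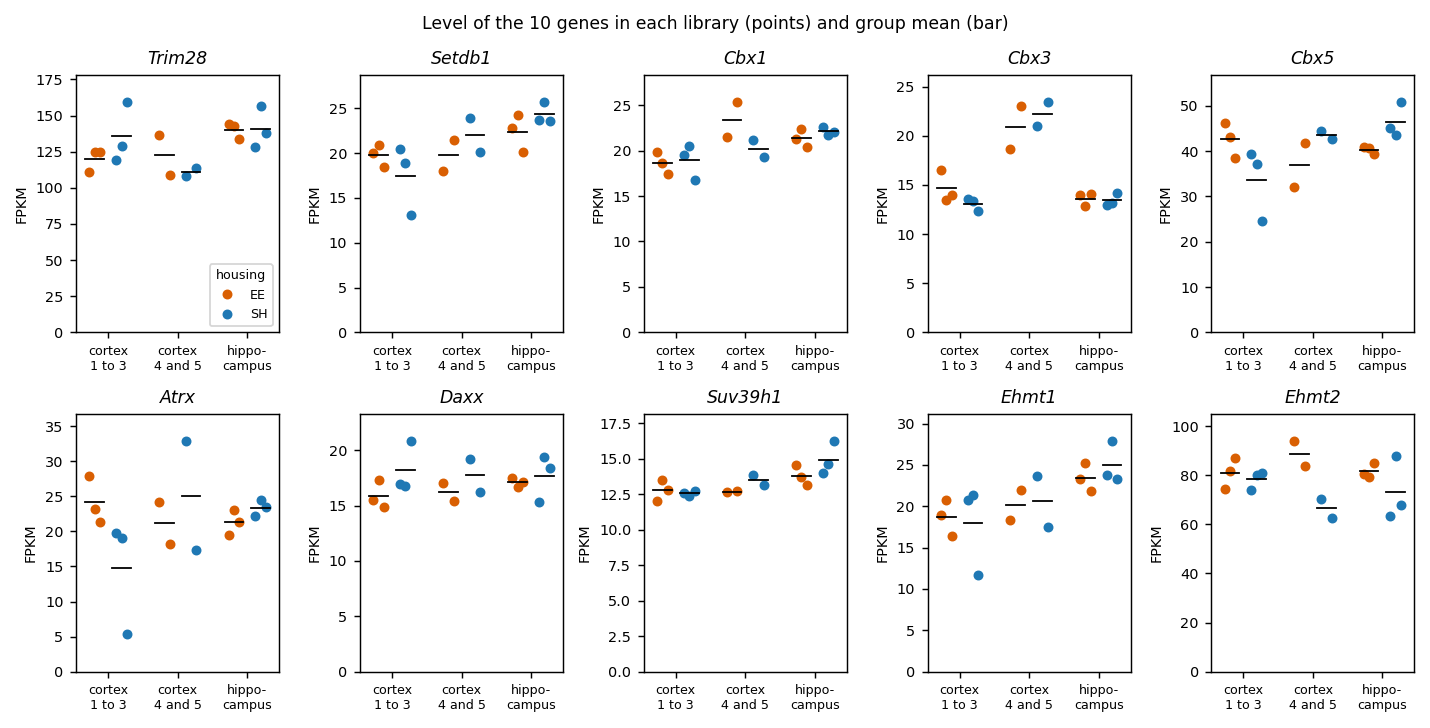
FPKM of the 10 genes (y axis, from 0, a scale for each gene) in each library (points, EE orange and SH blue) by block, with group means as bars. Cbx3 is higher in cortex replicates 4 and 5 than in any other library, and the low Atrx point at 5.40 FPKM is cortex SH replicate 3.

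The EE and SH libraries were compared first, to ask whether prenatal enrichment went with a different supply of this silencing machinery. None of the 10 genes passed the test in cortex, in hippocampus or over all 3 blocks (limma on log2(FPKM + 1), Benjamini-Hochberg adjusted p of 0.05 or less over all genes). In cortex (5 against 5) 1 of 12519 genes tested passed, 0.00799%, and in hippocampus (3 against 3) 0 of 13324. Over all 16 libraries with a term for the block, 43 of 12652 passed, 0.34%. At an unadjusted p under 0.05 there were 0 of the 10 genes in cortex (beside 7.46% of all genes), 0 in hippocampus (3.78%) and 1, Ehmt2, over the 3 blocks (9.41%). A count model on recovered reads (limma-voom) likewise called 0 of the 10 in each. In cortex 7 of the 10 log2 differences were positive and 3 negative (median 0.05), beside 45.9% and 54.1% of all genes (median -0.02). In hippocampus 2 were positive and 8 negative (median -0.07), beside 47.2% and 52.8% (median -0.01). Over the 3 blocks 4 were positive and 6 negative (median -0.00), beside 45.8% and 54.2% (median -0.01). In the full cortex set no gene of the 10 had all 5 EE libraries above or below all 5 SH libraries, which 0.607% and 2.02% of all genes did.

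For the scaffold itself no difference was resolved, with standard errors near the median of the 10 genes. They were 0.118 in cortex (median 0.110), 0.105 in hippocampus (0.099) and 0.082 over the 3 blocks (0.081). Trim28 measured 111, 125, 125, 136 and 109 FPKM in EE cortex replicates 1 to 5 and 119, 129, 159, 108 and 114 FPKM in SH. In hippocampus it measured 144, 143 and 133 FPKM in EE and 128, 156 and 138 FPKM in SH. EE and SH overlap in both tissues, and the highest value is cortex SH replicate 3. On the log2 scale EE differed by -0.05 in cortex (95% interval -0.31 to 0.22), -0.00 in hippocampus (-0.25 to 0.24) and -0.03 over the 3 blocks (-0.20 to 0.14; fold 0.98, interval 0.869 to 1.11). In cortex the value was -0.16 in the first 3 replicates alone and 0.13 in the other pair, and 0.04 over the cortex without SH replicate 3.

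Setdb1, the methyltransferase that TRIM28 recruits, measured 20.02, 20.8, 18.4, 18.0 and 21.5 FPKM in EE cortex and 20.4, 18.9, 13.1, 23.9 and 20.1 FPKM in SH cortex. In hippocampus it measured 22.8, 24.3 and 20.1 FPKM in EE and 23.7, 25.7 and 23.6 FPKM in SH. The groups overlap in each tissue, with cortex SH replicate 3 the lowest of all 16. Every EE library of cortex replicates 1 to 3 was above the SH mean of its block, and every EE library of the other blocks was below it. The SH mean of cortex replicates 1 to 3 includes the low SH replicate 3. How many of all genes show this pattern was not counted. EE minus SH came to 0.05 log2 units in cortex (95% interval -0.24 to 0.35), -0.12 in hippocampus (-0.35 to 0.12) and -0.01 over the 3 blocks (-0.21 to 0.19). Without cortex SH replicate 3 the cortex value was -0.063.

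Among the HP1 proteins, which read the methylated lysine, Cbx5 showed opposite directions in different blocks. It measured 46.2, 43.2, 38.4, 32.1 and 41.7 FPKM in EE cortex and 39.4, 37.2, 24.6, 44.5 and 42.7 FPKM in SH cortex. In hippocampus it was 40.9, 40.8 and 39.3 FPKM in EE and 45.0, 43.5 and 50.8 FPKM in SH. All 3 EE hippocampus libraries lay below all 3 SH libraries, as did 7.33% of all genes, while the cortex groups overlap. The log2 difference was -0.20 in hippocampus (95% interval -0.41 to 0.02, adjusted p = 0.9996 by limma). In cortex it was 0.11 (-0.25 to 0.48), with 0.36 in the first 3 replicates alone and -0.25 in replicates 4 and 5, where both EE libraries lay below both SH libraries (24.9% of all genes did so). Without cortex SH replicate 3 the cortex value was -0.03. The EE difference was compared between hippocampus and cortex replicates 1 to 3 by an interaction term: it was -0.55 for Cbx5 (SE 0.22, unadjusted p = 0.0289, adjusted p = 0.494), with 0 of 13138 genes passing, 0%, and 7.52% at an unadjusted p under 0.05 (1 of the 10 genes, Cbx5). It was -0.35 without cortex SH replicate 3 and -0.11 once library-specific trends on transcript length and GC content were removed. Between the cortex sets the interaction for Cbx5 was -0.60 (SE 0.29, adjusted p = 0.262), and 0 of 12519 genes passed, 0% (0 of the 10 genes at an unadjusted p under 0.05, beside 19.4% of all genes). Without cortex SH replicate 3 it was -0.40, and with the trend removed -0.057.

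Over the 3 blocks the log2 difference was -0.0026 for Cbx5 (95% interval -0.24 to 0.24) and 0.02 for Cbx1 (-0.12 to 0.16). Cbx1 ranged from 17.5 to 25.3 FPKM in EE cortex and from 16.8 to 21.2 FPKM in SH cortex, and from 20.4 to 22.6 FPKM in hippocampus. Its log2 difference was 0.07 in cortex (95% interval -0.15 to 0.28) and -0.05 in hippocampus (-0.25 to 0.15). In cortex replicates 4 and 5 both EE libraries were above both SH libraries, as were 21.7% of all genes. Cbx3 had log2 differences of 0.05 in cortex (-0.17 to 0.27), 0.02 in hippocampus (-0.20 to 0.24) and 0.04 over the 3 blocks (-0.11 to 0.18).

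Cbx3 instead separated the sets of cortex libraries. It measured 16.5, 13.5 and 13.9 FPKM in EE cortex replicates 1 to 3 and 13.6, 13.4 and 12.3 FPKM in SH, but 18.7 and 23.0 FPKM in EE replicates 4 and 5 and 20.97 and 23.4 FPKM in SH. Every library of replicates 4 and 5 lies above every library of replicates 1 to 3, which 0.671% of all genes did, and the 6 hippocampus libraries lie at 12.8 to 14.2 FPKM. The log2 difference between the sets was 0.60 (SE 0.10, 95% interval 0.37 to 0.83, limma adjusted p = 0.0383), so Cbx3 was higher in replicates 4 and 5. Of 12519 genes 50 passed in this comparison, 0.399%, and 11 of them were higher (0.0879%). The comparison was added after the values were seen. The adjusted p ran from 0.00472 to 0.220 over 19 alternatives, of which 8 lost the call: limma-voom (0.0556) and leaving out cortex EE replicate 2, 3 or 5 or SH replicate 1, 2, 4 or 5. Recovered Cbx3 reads numbered 633 to 822 in replicates 4 and 5 and 608 to 790 in replicates 1 to 3. Set and any difference in animals or sequencing cannot be told apart.

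The shares of the 3 HP1 transcripts follow from these levels. Cbx5 made up 53.5 ± 4.15% (SD, n = 6) of the summed HP1 FPKM in cortex replicates 1 to 3, 48.0 ± 3.23% (n = 4) in replicates 4 and 5 and 55.1 ± 1.93% (n = 6) in hippocampus. The Cbx3 share was 19.7 ± 1.77%, 25.8 ± 1.32% and 17.2 ± 1.19%, and the Cbx1 share 26.8 ± 2.82%, 26.2 ± 3.29% and 27.7 ± 1.34%. Cbx5 was the largest of the 3 in 16 of 16 libraries, with its lowest shares in cortex EE replicate 4 (44.4%) and cortex SH replicate 3 (45.7%).

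**Figure D2:**
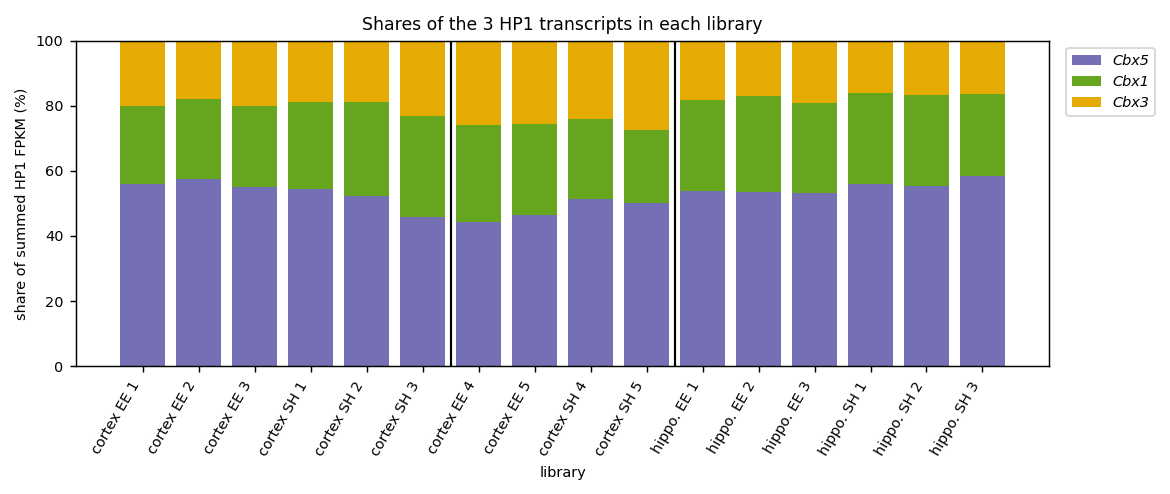
Share of Cbx5, Cbx1 and Cbx3 in their summed FPKM (y axis, percent) for each of 16 libraries, with lines between the 3 blocks. The Cbx3 share is 24.2 to 27.4% in cortex replicates 4 and 5 and 16.1 to 23.0% in the other libraries.

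Atrx, the chromatin remodeller of the H3.3 pathway, had the widest interval of the 10 genes in cortex and over the 3 blocks. It measured 27.9, 23.2, 21.4, 24.1 and 18.2 FPKM in EE cortex and 19.7, 19.1, 5.40, 32.8 and 17.4 FPKM in SH cortex. In hippocampus it was 19.5, 23.1 and 21.3 FPKM in EE and 22.2, 24.5 and 23.5 FPKM in SH. The SH cortex libraries hold both the lowest and the highest value of all 16, so the EE cortex range lies inside the SH range. Within cortex replicates 1 to 3 every EE library was above every SH library (11.2% of all genes were), with a log2 difference of 0.85 (SE 0.43, adjusted p = 0.414), while replicates 4 and 5 gave -0.18. Over cortex the difference was 0.44 (95% interval -0.34 to 1.21, adjusted p = 0.801) and without SH replicate 3 it was 0.08. Hippocampus gave -0.13 (-0.36 to 0.10), and -0.0025 with the length and GC trend removed. The interaction was -0.98 between tissues (SE 0.48, adjusted p = 0.494) and -1.03 between cortex sets (SE 0.66, adjusted p = 0.349). Without cortex SH replicate 3 these were -0.42 and -0.48, and with the length and GC trend removed -0.43 and -0.38.

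Daxx, the partner of ATRX that carries H3.3, ranged from 14.8 to 17.3 FPKM in EE cortex and from 16.2 to 20.8 FPKM in SH cortex. Each of the 5 EE cortex libraries and the 3 EE hippocampus libraries was below the SH mean of its block, although the groups overlap. The share of all genes that do so was not counted. Hippocampus SH replicate 1, at 15.3 FPKM, lay below every EE hippocampus library (16.7 to 17.5 FPKM). The fitted log2 difference of Daxx was -0.16 in cortex (95% interval -0.37 to 0.06, limma adjusted p = 0.746) and -0.11 over the 3 blocks (-0.26 to 0.04, adjusted p = 0.733). In hippocampus it was -0.04 (-0.30 to 0.22). Without cortex SH replicate 3, the highest at 20.8 FPKM, it was -0.10 in cortex and -0.08 over the 3 blocks. In cortex SH replicate 3 the ratio of Atrx to Daxx was 0.26, against 1.07 to 1.80 elsewhere.

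Of the G9a and GLP dimer, Ehmt2 had the smallest p of the 10 genes in cortex and over the 3 blocks. It measured 74.3, 81.5, 86.8, 93.7 and 83.6 FPKM in EE cortex and 74.1, 79.9, 81.1, 70.3 and 62.6 FPKM in SH cortex. In hippocampus it was 80.5, 79.2 and 85.0 FPKM in EE and 63.3, 87.9 and 67.7 FPKM in SH. The groups overlap in both tissues, and 4 of 5 EE cortex and 3 of 3 EE hippocampus libraries lay above the SH mean of their block. How many of all genes do so was not counted. Hippocampus SH replicate 2, at 87.9 FPKM, lay above every EE hippocampus library. The log2 difference was 0.19 in cortex (95% interval -0.04 to 0.42, adjusted p = 0.707), 0.17 in hippocampus (-0.14 to 0.48) and 0.18 over the 3 blocks (0.01 to 0.35, unadjusted p = 0.0361, adjusted p = 0.468). It was 0.04 in the first 3 cortex replicates alone and 0.41 in the other pair (adjusted p = 0.313), where both EE libraries lay above both SH libraries, as did 21.7% of all genes. The value stayed positive under all 26 alternatives for the 3 blocks, which reuse the same libraries, with limma adjusted p from 0.187 to 0.776. It ran from 0.11 with the length and GC trend removed to 0.23 without hippocampus SH replicate 2.

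Ehmt1, the partner of Ehmt2, measured 18.9, 20.8, 16.4, 18.3 and 21.97 FPKM in EE cortex and 20.8, 21.4, 11.6, 23.7 and 17.5 FPKM in SH cortex, with cortex SH replicate 3 the lowest. In hippocampus it was 23.3, 25.2 and 21.9 FPKM in EE and 23.8, 27.8 and 23.2 FPKM in SH, and the groups overlap in both tissues. The log2 difference was 0.05 in cortex (95% interval -0.32 to 0.42), -0.08 in hippocampus (-0.33 to 0.16) and -0.00 over the 3 blocks (-0.24 to 0.24). In cortex SH replicate 3 the ratio of Ehmt2 to Ehmt1 was 6.97, against 2.66 to 5.28 elsewhere. Both ratios were chosen after the values were seen. Suv39h1 was 12.02 to 13.5 FPKM in EE cortex and 12.4 to 13.9 FPKM in SH cortex, and its interval over the 3 blocks was the narrowest of the 10, at -0.05 (-0.17 to 0.07). In cortex replicates 4 and 5 both EE libraries (12.7 and 12.7 FPKM) lay below both SH libraries (13.9 and 13.1 FPKM), as did 24.9% of all genes.

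**Figure D3:**
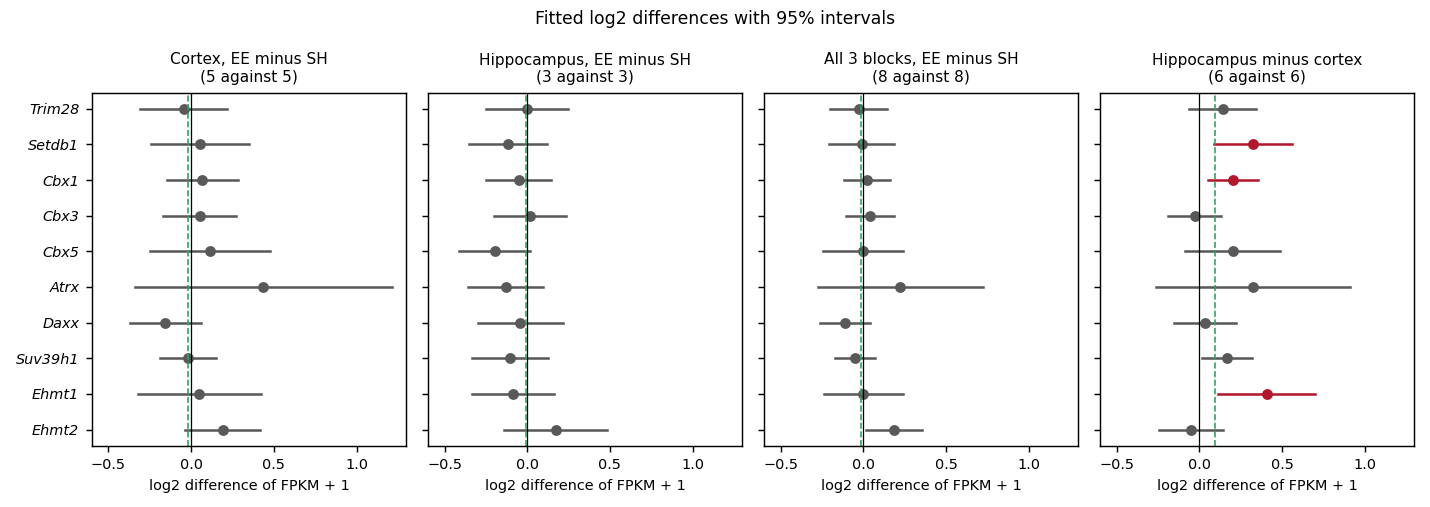
Fitted log2 differences of FPKM + 1 (x axis) with 95% intervals for the 10 genes in 4 comparisons. Dashed lines are the median of all genes tested, red marks an adjusted p of 0.05 or less, and all intervals of the 3 EE comparisons include 0 except that of Ehmt2 over the 3 blocks (0.01 to 0.35).

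The 6 hippocampus libraries were then set against the 6 libraries of cortex replicates 1 to 3, adjusting for housing. Of the 10 genes 3 rose in hippocampus and none was lower: Setdb1, Cbx1 and Ehmt1. Of all genes 35.4% passed in this comparison, 24.6% higher and 10.8% lower, and the median of all genes was 0.09, so 3 of 10 higher is close to the background. The log2 difference was positive for 8 of the 10 (median 0.18) and negative for 2, beside 60.4% and 39.6% of all genes. Setdb1 was 23.3 ± 1.86 FPKM (SD, n = 6) in hippocampus and 18.6 ± 2.84 FPKM (n = 6) in cortex, a log2 difference of 0.32 (SE 0.11, adjusted p = 0.0364). Ehmt1 was 24.2 ± 2.06 and 18.3 ± 3.75 FPKM, a difference of 0.41 (SE 0.13, adjusted p = 0.0327). Each Ehmt1 value in hippocampus (21.9 to 27.8 FPKM) lay above each in cortex replicates 1 to 3 (11.6 to 21.4), as for 14.9% of genes, but cortex replicates 4 and 5 reached 23.7 FPKM. Cbx1 was 21.8 ± 0.816 and 18.8 ± 1.43 FPKM, a difference of 0.20 (SE 0.07, adjusted p = 0.0396), and cortex replicates 4 and 5 had 21.8 ± 2.54 FPKM (n = 4). The calls depend on scaling: with median-of-ratios scaling, under which 2285 genes were higher and 2105 lower in place of 3226 and 1423, none of the 10 passed. The adjusted p for Setdb1, Ehmt1 and Cbx1 was then 0.117, 0.0796 and 0.296. None of the 10 passed without cortex EE replicate 3, hippocampus EE replicate 2 or hippocampus SH replicate 1, 2 or 3, and 1 passed without hippocampus EE replicate 1.

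The other 7 genes did not pass between tissues. Suv39h1 had a log2 difference of 0.17 (adjusted p = 0.0833), Trim28 0.14 (0.265), Cbx5 0.20 (0.26) and Atrx 0.32 (0.38), while Daxx, Cbx3 and Ehmt2 lay between -0.05 and 0.03. Markers of cell classes moved in the same comparison. Of 12 markers of dividing cells 11 rose in hippocampus (median log2 difference 0.74), as did 6 of 7 of radial glia (0.58) and 4 of 4 of intermediate progenitors (1.503), while 6 of 10 of postmitotic neurons (-0.39) and 6 of 6 of interneurons (-0.82) fell. Summed dividing-cell markers were 177 to 275 FPKM in hippocampus and 123 to 168 FPKM in cortex replicates 1 to 3. No marker was at 0 in every library of a block and housing. Summed choroid plexus markers were 36.5 to 16921 FPKM in hippocampus and 12.8 to 290 in those cortex libraries. The part of these cell classes in the 3 calls was not tested, and in bulk tissue more cells of a type and more RNA per cell cannot be told apart.

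Some pairs of the 10 genes varied together between libraries of 1 block and others in opposite directions. Deviations from the block mean were most alike for Setdb1 and Ehmt1 (Pearson r 0.91 and Spearman rho 0.89 over 16 libraries; r 0.78 without cortex SH replicate 3). Setdb1 also ran with Cbx5 (r 0.87, 0.66 without that library) and Atrx (0.81 and 0.42). Trim28 ran against Cbx5 (-0.83 and -0.65) and Cbx3 (-0.71 and -0.64) and with Ehmt2 (0.52 and 0.66). Of 45 pairs, 25 had r above 0, 11 above 0.5 and 5 below -0.5, where 16.8% and 14.9% of all gene pairs lay past the same limits. Without cortex SH replicate 3 there were 8 and 3 such pairs, beside 11.7% and 9.91% of all gene pairs. The genes of a library share its depth and its trend on transcript length, so these values carry no p. Across libraries the trend on length correlated with the deviations of Atrx (r 0.81, 0.47 without cortex SH replicate 3), Cbx5 (0.80 and 0.47) and Setdb1 (0.76 and 0.41), whose longest transcripts are 10275, 8803 and 5652 nt. For Ehmt1, with 5953 nt, r was 0.62 and 0.14, and for Trim28, with 3245 nt, -0.58 and -0.17. The other 5 genes had r between -0.32 and 0.37 over the 16 libraries. The rho with length was 0.44 to 0.64 in the 3 EE and 0.23, 0.28 and -0.76 in the 3 SH libraries of cortex replicates 1 to 3. In replicates 4 and 5 it was -0.24 and -0.36 in EE and 0.46 and 0.27 in SH, the opposite order. In hippocampus it was -0.48, 0.10 and -0.14 in EE and 0.03, 0.23 and 0.16 in SH, beside the negative hippocampus differences of 8 of the 10 genes. After removal of each library's length and GC trend, the cortex difference between EE and SH was 0.27 for Atrx, -0.04 for Cbx5 and -0.02 for Setdb1. In hippocampus it was then -0.11 for Cbx5, -0.058 for Setdb1 and -0.11 for Trim28, in place of -0.20, -0.12 and -0.0019.

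**Figure D4:**
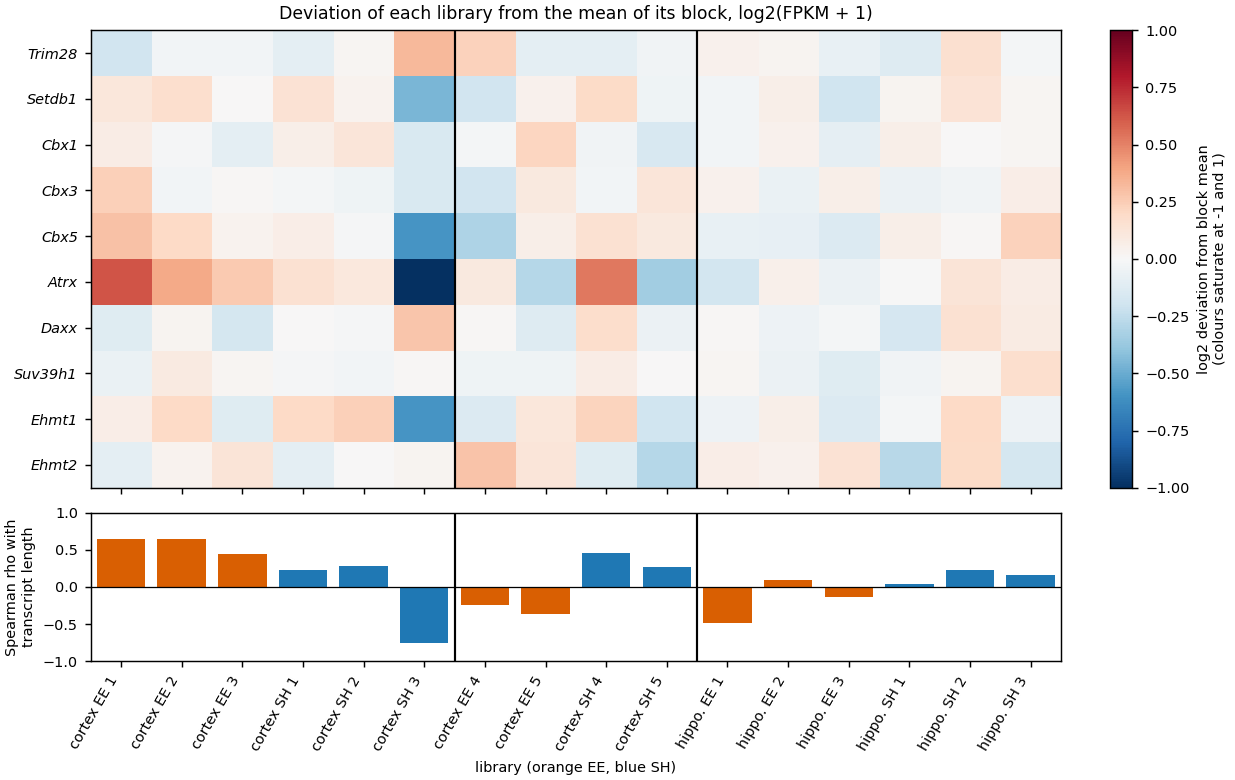
Top, deviation of each library from its block mean in log2(FPKM + 1) for the 10 genes, with red above and blue below the mean. Bottom, Spearman rho of each library's deviations over all genes with transcript length: cortex SH replicate 3 has a rho of -0.76 together with low Atrx, Cbx5, Ehmt1 and Setdb1 and high Trim28 and Daxx.

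The genes whose block-centred levels were most like those of Trim28 over the 16 libraries, among 12652, were Efna4 (r 0.93, 0.90 without cortex SH replicate 3), Rab11b (0.93 and 0.88), Npdc1 (0.92 and 0.86), Rnf126 (0.92 and 0.86) and Ube2m (0.92 and 0.86). These are the highest values of a long ranking, given as a description. The trend on length, with which Trim28 had r -0.58 (-0.17 without that library), was not removed. Of the 10 genes here, Daxx had the highest r with Trim28 over the 16 libraries, at 0.63 (0.36 without cortex SH replicate 3). Without that library Ehmt2 had the highest, at 0.66 (0.52 over the 16 libraries).

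Lists of genes that work with these 10 were examined in the same fits, and none of their members passed between EE and SH in cortex, in hippocampus or over the 3 blocks. Partners of SETDB1 and the HUSH silencing complex had 4 of 8 positive differences in cortex (median 0.00) and 0 of 8 in hippocampus (median -0.19, with 47.2% of all genes positive). Atf7ip, the cofactor that stabilises SETDB1, averaged 11.2 ± 1.37 FPKM in the EE and 14.8 ± 1.17 FPKM in the SH libraries of hippocampus (SD, n = 3 each), a log2 difference of -0.38 (SE 0.12, limma adjusted p = 0.9996). Its neighbours on the list by p were Trim33, a relative of TRIM28 (-0.29), and the remodeller Smarcad1 (-0.31). In cortex the smallest p was that of Mphosph8, the H3K9 methyl reader of HUSH (0.16, adjusted p = 0.78).

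Lists of enzymes and readers of DNA and histone methylation differed in their counts in hippocampus, where 52.8% of all genes were negative. The rho with transcript length there was -0.48, 0.10 and -0.14 in EE and 0.03, 0.23 and 0.16 in SH. The part of this trend in the hippocampus counts of any list, HUSH partners included, was not tested. The H3K9 demethylases had 0 of 10 positive (median -0.17), led by Kdm3b (-0.26), Phf8 (-0.34) and Kdm4c (-0.34). The DNA methylation list had 0 of 10 positive (median -0.23), with the methylcytosine dioxygenases Tet1 at -0.31 and Tet3 at -0.23. In cortex the same lists had 7 of 10 and 6 of 10 positive, with medians of 0.02 and 0.03. Polycomb genes had 1 of 15 positive in hippocampus (median -0.07) and 9 of 15 in cortex (0.03), and Cbx8, a Polycomb chromobox protein, had -0.26 over the 3 blocks (adjusted p = 0.191). The NuRD complex, which TRIM28 also recruits, had 9 of 14 positive in each tissue (medians 0.06 and 0.06). Other methyltransferases and G9a cofactors had 2 of 8 in cortex (-0.06) and 4 of 8 in hippocampus (-0.00), with Suv39h2, the paralog of Suv39h1, at -0.21 in cortex. Among H3.3 and heterochromatin assembly genes, 5 of 12 were positive in cortex (-0.04) and 3 of 12 in hippocampus (-0.08). Chaf1a, of the histone chaperone CAF-1, averaged 4.92 ± 0.247 FPKM in the EE and 6.44 ± 0.880 FPKM in the SH cortex (SD, n = 5 each), a difference of -0.32 (adjusted p = 0.424).

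The list of KRAB and related zinc finger genes held the largest single differences of these lists in cortex, in hippocampus and over the 3 blocks. The lists were chosen with earlier results of these data known, so this rank is only a description. Of 9 KRAB and related zinc finger genes, 4 were positive in cortex and 3 in hippocampus (medians -0.00 and -0.06, beside -0.02 and -0.01 over all genes). Zfp37 averaged 4.46 ± 0.695 and 6.94 ± 1.75 FPKM in EE and SH cortex (SD, n = 5 each), and 4.15 ± 0.466 and 6.73 ± 0.760 FPKM in hippocampus (n = 3 each). Over the 3 blocks its log2 difference was -0.54 (SE 0.12, adjusted p = 0.0542). Zfp708 had -0.51 (SE 0.11, adjusted p = 0.0542), with means of 2.81 ± 0.631 (EE) and 4.38 ± 0.490 FPKM (SH; SD, n = 8 each). Neither passed the threshold. Markers of dividing cells had 0 of 12 positive over the same 3 blocks (median -0.14, none passing), and their part in the differences of any list was not tested.

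**Figure D5:**
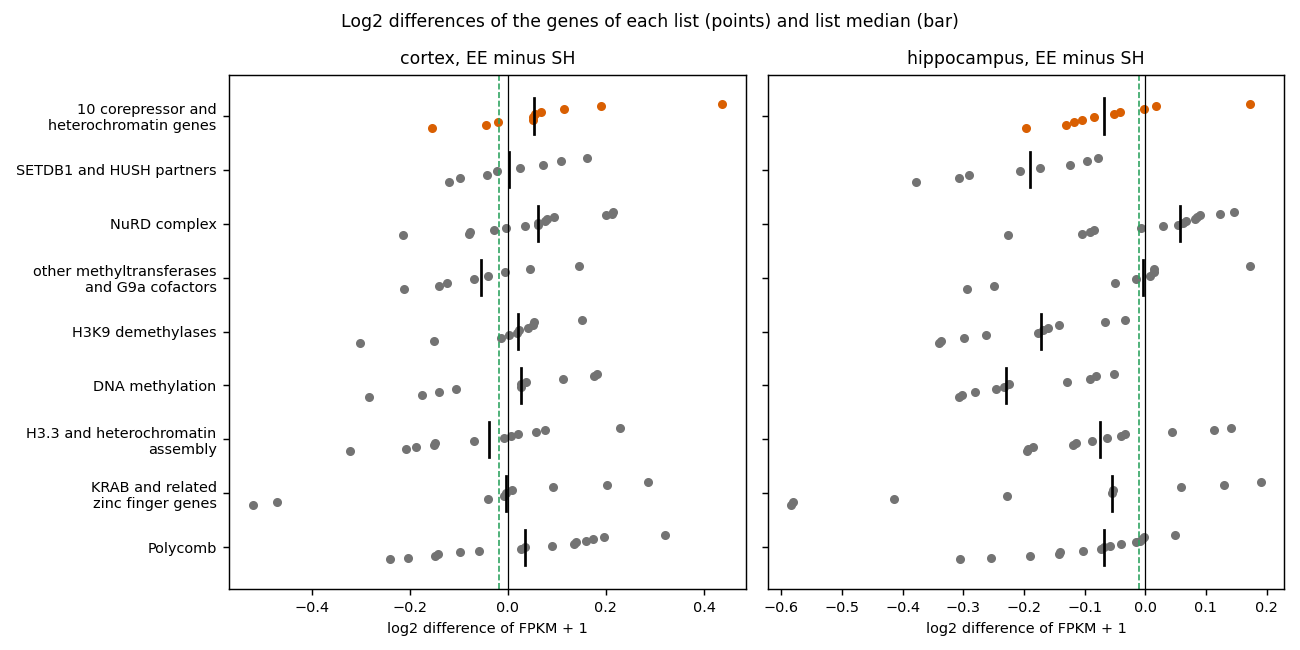
Log2 difference between EE and SH (x axis, FPKM + 1) for each gene of the lists (points) with the list median (bar) in cortex and hippocampus; the dashed line is the median of all genes. The 10 corepressor and heterochromatin genes have a median of 0.05 in cortex and -0.07 in hippocampus, and no point passed the test.

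Between tissues each partner list had members that passed, beside 24.6% of all genes higher in hippocampus and 10.8% lower. These calls are those of the main fit, and the lists were not examined under the alternatives. With median-of-ratios scaling 2285 of all genes were higher and 2105 lower, in place of 3226 and 1423. Of the SETDB1 and HUSH partners 1 of 8 rose in hippocampus, Atf7ip (0.53, adjusted p = 0.0376), and of the H3K9 demethylases 5 of 10 rose, led by Kdm3a at 16.9 ± 2.58 against 9.03 ± 2.13 FPKM (SD, n = 6 each; 0.85). Of the NuRD genes 5 of 14 rose, among them the remodeller Chd4 (0.68) and Gatad2a (0.57), and Hdac2 fell by 0.34 on the log2 scale. Of the DNA methylation genes 4 of 10 rose, including Uhrf1, which guides maintenance methylation (0.74), and of the H3.3 and assembly genes 6 of 12, led by Chaf1a (0.67). Of the Polycomb genes 6 of 15 rose and 2 fell, among them Cbx6 (-0.36). Of the other methyltransferases and cofactors 3 of 8 rose and of the zinc finger genes 3 of 9, among them Zfp57, which guards imprinted loci, at 41.9 ± 8.16 against 28.0 ± 3.09 FPKM (SD, n = 6 each; 0.55).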

How the data were processed

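RNA was extracted with Trizol and libraries were made with the NEBNext Ultra RNA kit, per the labels' protocols. Per the submitters' processing notes the build was mm10, and the tools included StringTie 1.3.4d, HISAT2 2.0.4 and cutadapt 1.9 as well as DESeq2 and edgeR, with no role stated. Annotation, gene filter and strand setting are not given in the sources used here. The authors deposited FPKM per gene for each library. In this work 22 date-like symbols and 1 symbol standing for a pair of genes were left out. Groups came from the titles and treatment labels, and tissue from the titles, since the tissue label reads brain throughout.

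Differences were tested with limma 3.58.1 (R 4.3.3; linear model with eBayes and a trend, two-sided) on log2(FPKM + 1), so the change of low genes is understated. Genes listed in all libraries of a fit with a mean of at least 1 FPKM were tested, with Benjamini-Hochberg adjustment over all of them and a threshold of 0.05. Cortex fits had a term for the set of replicates. Whole reads were recovered from the steps of the FPKM values, to within 0.003 reads, for 99.8 to 99.9% of the genes of each library, which held 84.5 to 87.9% of its summed FPKM. The script was tested on simulated data. Summaries used python 3.11.15, pandas 2.3.3 and scipy 1.17.1.

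The members and lists were chosen with earlier results of these data known. Named were all 10 genes, list members that passed, up to 3 per list with the smallest p in cortex and in hippocampus, and the 5 genes most like Trim28. Some list members under this rule are not reported here. Alternatives covered scaling, quantile normalization, filters, pseudocount, variance model, a replicate block, a Y-linked term and leaving out each library. Further alternatives, chosen once the values were known, were limma-voom on recovered reads, removal of each library's length and GC trend, the comparison of the cortex sets and a block for the tissue comparison.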

Additional observations from a re-analysis of the deposited data

How the results depend on the processing

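Between EE and SH none of the 10 genes passed under any alternative run, and the sign changed in 21 of 240 alternative values in cortex, 7 of 170 in hippocampus and 35 of 260 over the 3 blocks. The cause was not tested. In cortex the log2 difference became 0.026 for Trim28 with quantile normalization, and -0.024 for Setdb1, -0.042 for Cbx5, 0.010 for Suv39h1 and -0.023 for Ehmt1 with the length and GC trend removed. It was -0.020 for Cbx1 and 0.023 for Suv39h1 in replicates 1 to 3 only, and 0.13 for Trim28, -0.15 for Setdb1, -0.091 for Cbx3, -0.25 for Cbx5, -0.18 for Atrx and -0.021 for Ehmt1 in replicates 4 and 5 only. Leaving out 1 cortex library gave -0.12 to 0.036 for Trim28, -0.063 to 0.12 for Setdb1, -0.0073 to 0.12 for Cbx3, -0.032 to 0.23 for Cbx5, -0.046 to 0.0018 for Suv39h1 and -0.10 to 0.13 for Ehmt1. In hippocampus Trim28 was 0.026 with median-of-ratios scaling and 0.0094 with limma-voom, and leaving out 1 library gave -0.068 to 0.076 for Trim28, -0.0065 to 0.057 for Cbx3 and -0.14 to 0.024 for Daxx. Over the 3 blocks median-of-ratios scaling gave 0.012 for Setdb1, 0.019 for Cbx5 and 0.021 for Ehmt1, a pseudocount of 0.1 0.0014 for Ehmt1, a Y-linked term 0.011 for Setdb1, 0.032 for Cbx5 and 0.011 for Ehmt1, and limma-voom 0.00010 for Cbx5 and 0.0042 for Ehmt1. Leaving out 1 library there gave -0.0069 to 0.34 for Atrx, -0.014 to 0.045 for Cbx1, -0.099 to 0.053 for Cbx5, -0.095 to 0.040 for Ehmt1, -0.085 to 0.025 for Setdb1 and -0.073 to 0.021 for Trim28.

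Between tissues 0 of the 10 genes passed with median-of-ratios scaling, 1 with limma-voom and 6 with the trend removed, and 0 to 4 when 1 library was left out. The difference was -0.079 for Daxx with median-of-ratios scaling, -0.023 for Daxx and 0.057 for Ehmt2 with quantile normalization, and -0.054 to 0.014 for Cbx3 when 1 library was left out. For the EE difference between tissues, quantile normalization gave -0.18 for Trim28 and -0.090 for Ehmt2, the trend removed -0.067 for Trim28, -0.041 for Daxx and 0.083 for Ehmt1, and leaving out 1 library -0.087 to 0.048 for Cbx1 and -0.33 to 0.087 for Ehmt1. For the EE difference between cortex sets, quantile normalization gave -0.16 for Trim28, a Y-linked term -0.060 for Daxx and 0.14 for Ehmt1, the trend removed -0.019 for Trim28, 0.030 for Setdb1, -0.16 for Daxx and 0.26 for Ehmt1, and leaving out 1 library -0.052 to 0.18 for Daxx and -0.33 to 0.15 for Ehmt1.

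Of all genes, cortex replicates 4 and 5 only gave 436 calls (211 higher and 225 lower in EE) and replicates 1 to 3 only gave 0, against 1 in the full cortex, 3 with quantile normalization or without cortex SH replicate 3, 6 with the trend removed, 9 in a fit of all 16 libraries and 0 without a term for the set. Over the 3 blocks the 43 calls became 232 without cortex SH replicate 3, 102 with the trend removed, 11 at a mean of at least 5 FPKM and 5 with a replicate block, and were as few as 17 without another library. Between tissues the 4649 calls became 2734 at a mean of at least 5 FPKM. Between cortex sets the 50 calls became 180 with the trend removed and 24 to 80 when 1 library was left out. Deviations of same-numbered libraries correlated at 0.09 to 0.41 in cortex and -0.56 to 0.36 in hippocampus, so the numbers were not taken to pair the samples, although 9 of 10 cortex libraries (2 of 6 in hippocampus) correlated best with their own number. Cortex numbers 4 and 5 share the same correlation (0.13), so their results are not separate. With a replicate block 0 of the 10 genes passed between EE and SH and 2 between tissues.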
